A study of Mus musculus with 6 samples.

Results

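Interferon-stimulated genes are the genes that a cell switches on after it has sensed interferon, and 37 of them were followed here in sorted mammary tumor cells. The members came from a fixed list of symbols, each matched through its Ensembl identifier to the mouse annotation, and all 37 of the 37 listed genes were among the 22310 genes of the normalised table. The study sorted primary PyMT tumor cells into metastasis-initiating cells (MICs), which were Lin-CD24+CD90+, and non-MICs, which were Lin-CD24+CD90-, and sequenced 3 libraries of each population, numbered 1 to 3 in both. The tumors arose in female FVB/N mice of about 12 to 18 weeks of age that carried the MMTV-PyMT transgene, in which the MMTV promoter drives the polyoma middle T oncogene in mammary epithelium, and the labels give the genotype otherwise as WT. Cells of both populations had been kept in culture overnight, in medium with a low share of serum, insulin and hEGF, before they were sorted without any further treatment. Both populations therefore shared the transgene, the culture step and the depletion of CD45, CD31 and Ter119 positive cells, and differed by the CD90 gate. The sources used here do not say whether a number stands for 1 mouse, 1 culture or 1 sorting day, so p-values measure the spread between these libraries. In comparisons between numbers, a p-value rests on the agreement of the 1 MIC and 1 non-MIC library of each number. The question was whether the interferon response differed between MICs and non-MICs.

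Type I and type III interferons bind receptors at the cell surface, which activate the kinases JAK1 and TYK2. The kinases phosphorylate STAT proteins, STAT2 among them, which join IRF9 into the complex ISGF3, and ISGF3 binds the interferon-stimulated response element (ISRE) in the promoters of its targets, whereas interferon gamma acts through the gamma-activated site (GAS). The products of the targets sense viral RNA, degrade it, block its translation, tag proteins with the ubiquitin-like modifier ISG15 and restrain the pathway itself. In mammary epithelium and in its tumors the same genes are also known to be expressed at a low level without infection.

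Some promoters of the members carried the letters of these elements, and 4 promoters with a match are shown because they represent the patterns described below. A promoter entry from RefSeq on GRCm38.p6 was found for 27 of the 37 members, and the 250 bases before each annotated start were searched on both strands. The ISRE core, taken as 2 copies of GAAA with 2 bases between them, was found in 11 of the 27 (40.7%) beside 3.46% of the 27025 genes with a promoter of the same length. The GAS letters, TTCNNNGAA, were found in 6 of the 27 (22.2%) beside 8.13% of those genes, and both were present for Oas1a, Gbp7 and Bst2. In the first 3 of the following sequences capitals mark matches to the ISRE core, on either strand and merged where they overlap, and in the last they mark the GAS match. A match describes letters and not a bound site.
Isg15 (chr4:156200819-156201068, minus strand): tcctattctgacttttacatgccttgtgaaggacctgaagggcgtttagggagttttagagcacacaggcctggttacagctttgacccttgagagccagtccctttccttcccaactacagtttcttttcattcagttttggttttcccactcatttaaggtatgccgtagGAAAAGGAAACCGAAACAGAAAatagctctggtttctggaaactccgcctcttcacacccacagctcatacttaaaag
Rsad2 (chr12:26456453-26456702, minus strand): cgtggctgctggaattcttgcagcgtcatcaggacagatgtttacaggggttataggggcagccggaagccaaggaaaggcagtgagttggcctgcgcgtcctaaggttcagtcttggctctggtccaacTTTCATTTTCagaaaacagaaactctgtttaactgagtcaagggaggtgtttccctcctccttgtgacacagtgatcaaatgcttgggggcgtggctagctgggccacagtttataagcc
Bst2 (chr8:71537473-71537722, minus strand): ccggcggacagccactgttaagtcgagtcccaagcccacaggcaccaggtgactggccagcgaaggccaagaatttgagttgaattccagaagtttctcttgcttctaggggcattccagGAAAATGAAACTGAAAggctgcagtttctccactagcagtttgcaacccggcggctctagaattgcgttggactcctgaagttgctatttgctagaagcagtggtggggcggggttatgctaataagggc
Irf1 (chr11:53769764-53770013, plus strand): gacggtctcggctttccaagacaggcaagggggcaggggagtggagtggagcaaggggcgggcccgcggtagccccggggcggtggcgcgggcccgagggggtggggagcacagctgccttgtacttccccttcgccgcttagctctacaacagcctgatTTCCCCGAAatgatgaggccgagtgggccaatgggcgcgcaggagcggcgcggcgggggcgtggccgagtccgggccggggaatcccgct
The Isg15 promoter held 3 overlapping ISRE matches, which began 78, 72 and 66 bases before the start. Rsad2 had 1 match, 120 bases before the start. Bst2 had 2 overlapping matches, at 130 and 124 bases, and a GAS match at 136 bases that ran into the first of them. Irf1 had no ISRE core in this window and 1 GAS match at 90 bases.

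Each library held between 31467281 and 51759769 recovered reads, and a normalised read count is the count scaled to a library total of 35000000, so that 1 read was worth between 0.676 and 1.11. Of the 37 members, 18 had 100 or more reads in every library, and Oas2 and Mx1 had 3 or fewer reads in at least 1 library. Thy1, which encodes the CD90 of the gate, was at 1509, 301 and 755 in MICs 1 to 3 and at 16.9, 21.1 and 12.6 in non-MICs 1 to 3, and the populations did not overlap. Luminal epithelial markers were abundant in every library and all 7 were detected, with Epcam between 9712 and 23771. The endothelial markers summed to between 33.1 and 53.9 in MIC libraries and to between 15.9 and 44.2 in the others. Immune markers were detected for 12 of 18 listed genes and are given below beside the result they move with.

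No interferon-stimulated gene separated MICs from non-MICs. With limma on log2(value + 1) across all genes, 0 of the 37 members passed an adjusted p of 0.05, against 0% of all 22310 genes, and 0 members had an unadjusted p under 0.05, against 1.44% of all genes. Even Thy1, the gene of the gate, did not pass in this fit (adjusted p = 0.816 in limma without a block). A count of 0 from it therefore cannot show a lack of difference. Thy1 did pass with the replicate number as a block (adjusted p = 5.31e-05 in limma). With the replicate number as a block, which fits the difference within same-numbered libraries, 0 members passed, against 0.13% of all genes, and the smallest adjusted p was 0.418. With edgeR on the recovered reads and the same block, 0 members passed, against 1.41% of all genes, and the smallest adjusted p was 0.185. The members with an unadjusted p under 0.05 in limma with the block numbered 4, or 10.8%, against 11.2% of all genes, and those in edgeR with the block numbered 6, against 11.7% of all genes. In DESeq2 with the block 0 members passed, against 0.596% of all genes, and 3 had an unadjusted p under 0.05, against 8.58% of all genes. The median log2 fold change of the members, MIC minus non-MIC, was -0.10, beside -0.04 over all genes, and 12 of 37 members (32.4%) lay above 0, beside 45.8% of all genes. The median rested on single libraries in the fit without a block, and was 0.37 without MIC 2, 0.30 without non-MIC 1, -0.54 without MIC 1 and -0.60 without non-MIC 2.

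The interval of the difference was narrower for most members with the replicate number as a block than without it. The 95% interval of the log2 fold change lay within 1 on either side of 0 for 27 of 37 members with the block and for 3 without it. The share of all genes within that range was not counted. The median half-width of that interval was 0.49 with the block and 1.76 without it. Over the genes with a mean above the median it was 0.40 and 0.69, and over all genes 0.71 and 1.29.

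**Figure D1:**
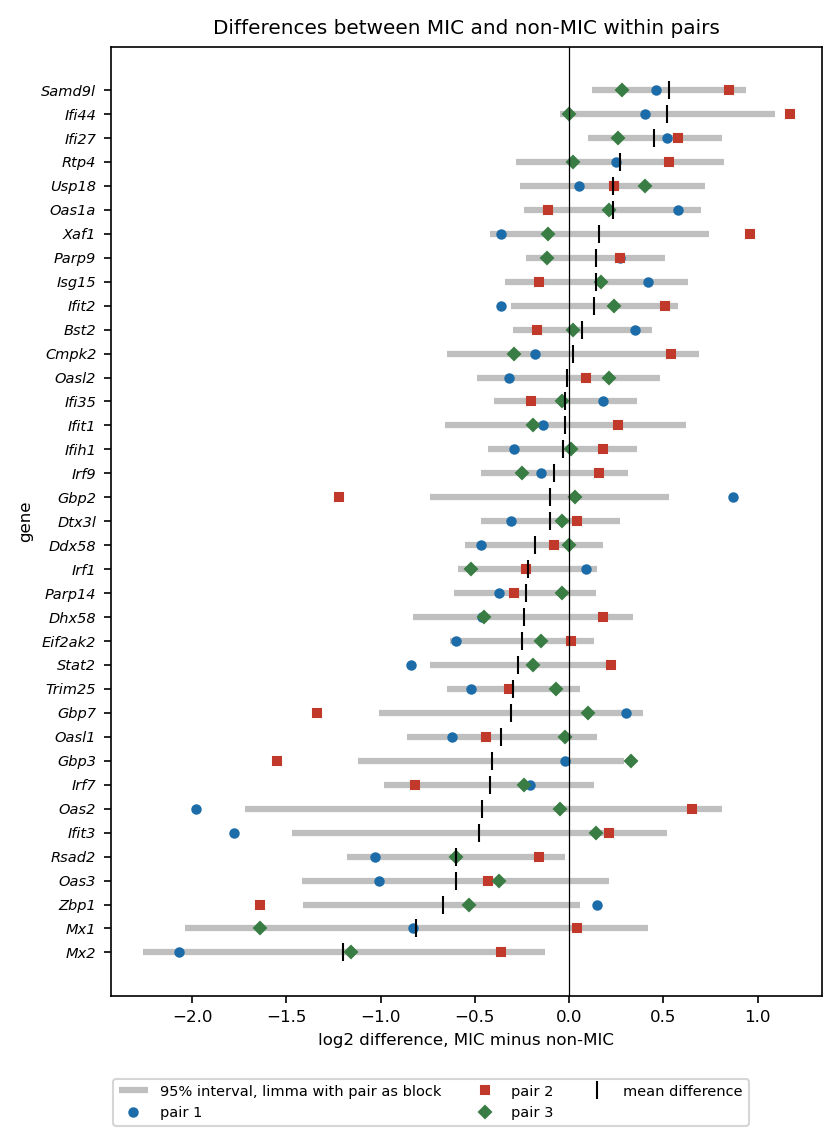
Log2 difference between the MIC and the non-MIC library of each number (x axis) for each of the 37 interferon-stimulated genes (y axis, sorted by the mean difference). Coloured points are pairs 1, 2 and 3, black bars the mean of the 3 pairs, and grey lines the 95% interval from limma with the pair as a block. The means run from -1.20 for Mx2 to 0.53 for Samd9l, and 33 of the 37 intervals include 0.

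In the following a pair is the MIC and the non-MIC library of the same number. Of the 37 members, 4 were higher in MICs in all 3 pairs (10.8%, against 12.5% of all genes) and 8 were lower in all 3 (21.6%, against 18.8% of all genes), and for 0 members did the 3 MIC values lie wholly above the 3 non-MIC values (2.69% of all genes) or wholly below them (3.55% of all genes). The 4 that were higher were Samd9l, Usp18, Rtp4 and Ifi27, and the 8 that were lower were Irf7, Ddx58, Oas3, Oasl1, Trim25, Parp14, Mx2 and Rsad2. Differences within pairs were small, with a median absolute value of 0.27 on the log2 scale over the members, beside 0.24 over the genes whose mean lay above the median of all genes.

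Samd9l, which encodes an antiviral protein that restricts translation, was at 1580, 385 and 828 normalised read counts in MICs 1 to 3 and at 1149, 213 and 680 in non-MICs 1 to 3. Each MIC value was above its own partner, yet the populations overlapped because both fell from the first pair to the second. Its log2 fold change was 0.53 with an SE of 0.71 without the block and 0.19 with it (adjusted p = 0.418 in limma with the block). Ifi27, a small membrane protein of mitochondria and the nuclear envelope, was at 3869, 1316 and 1837 in MICs and at 2701, 882 and 1530 in non-MICs. It too was higher in each pair and overlapped between populations. Its log2 fold change was 0.45 with an SE of 0.16 with the block (adjusted p = 0.418 in limma with the block). Reads of Ifi27 can be shared with the related Ifi27l2a, so its level is uncertain to that extent.

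At the other end stood Mx2 and Rsad2. Mx2 belongs to the dynamin-like GTPases that trap viral nucleoprotein, and the annotation lists it as a polymorphic pseudogene. It was at 7.5, 5.6 and 18.9 in MICs and at 34.9, 7.4 and 43.5 in non-MICs, so that MICs were lower in each pair although non-MIC 2 lay within the range of the MICs. Its log2 fold change was -1.20 with an SE of 0.49 with the block (adjusted p = 0.423 in limma and 0.185 in edgeR, both with the block). Mx1, its relative, carries a known loss of function in most laboratory strains and was detected at 4, 1 and 3 reads in MICs and 8, 1 and 12 reads in non-MICs, too few for a fold change. Rsad2 encodes viperin, which makes a chain-terminating nucleotide, and was at 127, 55.6 and 256 in MICs and at 260, 62.3 and 388 in non-MICs. It was lower in the MIC library of each pair, least so in the second, and the populations overlapped. Its log2 fold change was -0.60 with an SE of 0.27 with the block (adjusted p = 0.434 in limma with the block), and Cmpk2, its neighbour on chromosome 12 and a nucleotide kinase, lay at 0.02.

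Among the signal and transcription factors, Irf7, the amplifier of type I interferon transcription, was at 810, 43.4 and 72.4 in MICs and at 938, 77.1 and 85.6 in non-MICs. The population difference was small beside the drop from the first pair to the other two. Irf1, an early factor that also answers interferon gamma, was at 2153, 618 and 5241 in MICs and at 2018, 727 and 7531 in non-MICs, with no common direction across pairs. Stat2 and Irf9, whose products are parts of ISGF3, had log2 fold changes of -0.27 and -0.08.

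Among the RNA sensors, Ddx58, which encodes RIG-I, was at 2406, 860 and 2784 in MICs and at 3335, 907 and 2793 in non-MICs. In the third pair the values were nearly equal. Zbp1, a sensor of Z-form nucleic acids that can start necroptosis, was at 218, 24.5 and 120 in MICs and at 197, 78.2 and 174 in non-MICs, and MICs were lower in all pairs but the first. Ifih1, which encodes MDA5, and Dhx58, which encodes LGP2, had log2 fold changes of -0.03 and -0.24.

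The enzymes that degrade RNA or block its translation showed no common direction. Oas3, an oligoadenylate synthetase that activates RNase L, was at 192, 4.4 and 26.4 in MICs and at 387, 6.3 and 34.4 in non-MICs. MICs were lower in each pair, but the range within each population was far wider than the distance between partners. Oasl1, a related protein known to restrain Irf7 translation, was at 224, 143 and 253 in MICs and at 345, 194 and 257 in non-MICs. The other members of the group had log2 fold changes between -0.48 for Ifit3 and 0.23 for Oas1a, Oas2 being at 1 read in non-MIC 2 and 2 reads in MIC 2. Ifit3 and Oas1a have near-identical copies in the mouse genome, so reads could be split between copies and their levels are uncertain. Gbp2 and Gbp3 belong to a family of related genes, and whether they share reads with relatives was not tested.

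In the ISG15 group, Isg15 itself was at 1000, 99.0 and 209 in MICs and at 745, 111 and 186 in non-MICs, and the order of the populations turned in the second pair. Usp18, the protease that removes ISG15 and restrains the receptor, was at 896, 120 and 139 in MICs and at 868, 101 and 105 in non-MICs. Trim25, a ligase that activates RIG-I, was at 2763, 2304 and 3679 in MICs and at 3951, 2869 and 3852 in non-MICs, nearly even across pairs. Parp14, an ADP-ribosyltransferase, was at 1533, 255 and 1628 in MICs and at 1981, 312 and 1679 in non-MICs, and Parp9 and its partner Dtx3l had log2 fold changes of 0.14 and -0.10. All of these populations overlapped.

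Among the remaining effectors, Bst2, which encodes the virus-tethering protein tetherin, had the highest level per kilobase of exon of all members. It was at 5491, 942 and 869 normalised read counts in MICs and at 4312, 1059 and 855 in non-MICs, high in the first pair and almost level in the others. Rtp4, a chaperone of membrane receptors, was at 667, 40.0 and 184 in MICs and at 560, 27.5 and 181 in non-MICs, a difference that shrank to 0.02 on the log2 scale in the third pair. Ifi35 was at 1297, 552 and 882 in MICs and at 1143, 636 and 905 in non-MICs, without a common direction. Ifi44 and Xaf1 had log2 fold changes of 0.52 and 0.16.

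What varied was the level from pair to pair, in both populations alike. The members were highest in the first pair and lowest in the second, where the median fold of the first over the second was 3.68, beside 0.939 over all genes. The third pair stood between them, at a median of 1.85-fold over the second. This comparison between numbers was added after the data had been seen, as an F test over the 3 numbers in limma with population and number as terms. By it 29 of 37 members differed between pairs (78.4%, against 28.4% of all genes), and by edgeR 35 did, against 31.6% of all genes. Each number held 1 MIC and 1 non-MIC library, which may share a source, so such calls rest on the agreement of both libraries. They do not show that a difference between numbers would recur in other tumors or sorts. In the limma contrast of the first with the second pair, 31 members were higher in the first (83.8%, against 7.57% of all genes) and 0 were lower, against 7.23% of all genes. Between the third and the second pair 19 members were higher in the third (11.4% of all genes). Both the F test and the contrast of the first with the second pair called 0 of 37 members and 0 of 22310 genes without MIC 3 and without non-MIC 3, with 26 members at an unadjusted p under 0.05 by the F test and 32 by the contrast in each case, while without any 1 of the other 4 libraries the F test called between 27 and 29 members and the contrast between 25 and 28.

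**Figure D2:**
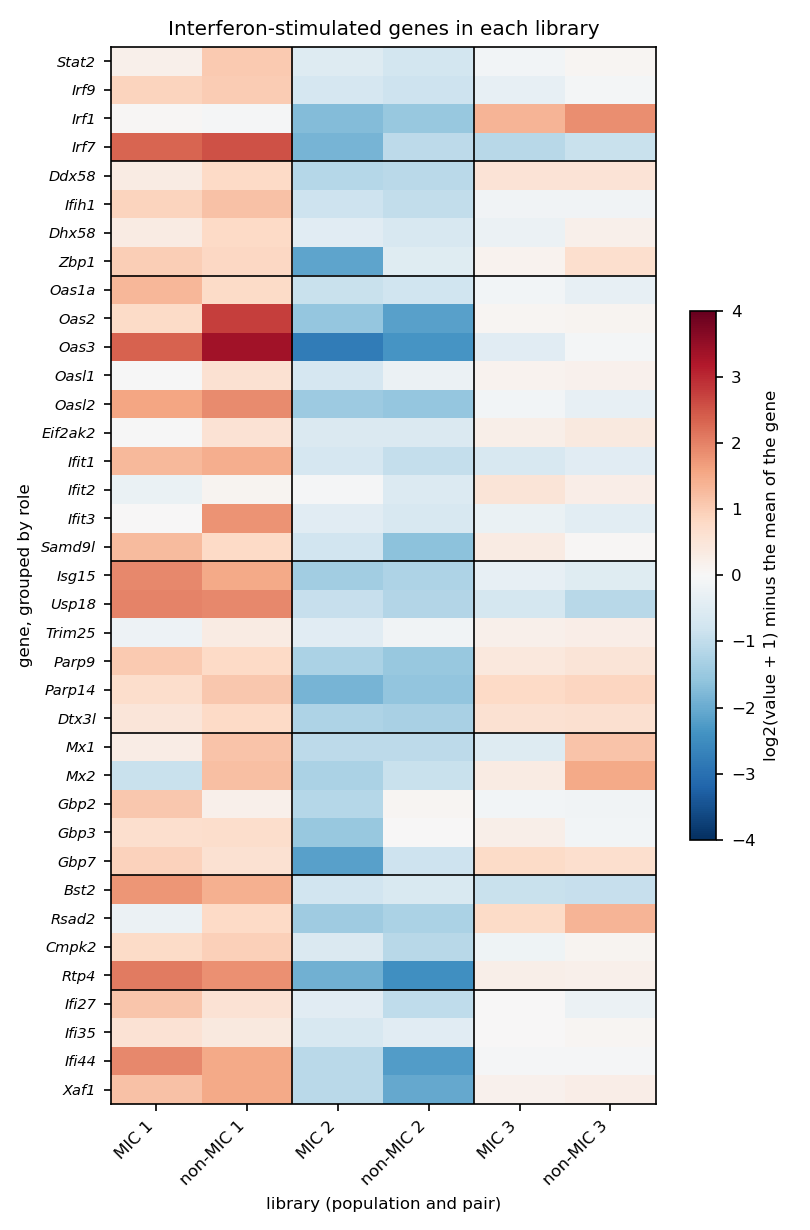
Level of each of the 37 interferon-stimulated genes (y axis, grouped by role, lines between groups) in the 6 libraries (x axis, pairs side by side), as log2(value + 1) minus the mean of the gene. Red is above and blue below the mean of the gene. Both libraries of the second pair are the lowest of their population for 33 of the 37 genes.

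The order of the libraries was shared by the populations. Of the 37 members, 33 (89.2%, against 17.1% of all genes) had their lowest value in the second pair in both populations, and 26 (70.3%, against 12.8% of all genes) had their highest in the first pair in both. The SD between the 3 libraries of a population, on the log2 scale, had a median of 1.11 in MICs and 1.24 in non-MICs over the members, beside 0.39 and 0.30 over the genes with a mean above the median. Fewer cells with an active response and less RNA of these genes per cell cannot be told apart in such bulk libraries, and neither can the tumor, the culture and the sorting day behind a number.

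Every role group took part, to unequal degrees. All 4 signal and transcription factors, all 4 RNA sensors, all 4 membrane and nucleotide effectors and all 4 other effectors were higher in the first pair than in the second, as were 5 of 6 genes of the ISG15 group, 7 of 10 RNA-degrading and translation-blocking genes and 3 of 5 large GTPases. Oas3 had the widest difference, 5.44 on the log2 scale (adjusted p = 6e-06 in limma). It was followed by Rtp4 with 4.16, Irf7 with 3.89, Oas2 with 3.63, Ifi44 with 3.38, Oasl2 with 3.22 and Isg15 with 3.03. The value of Oas3 rests on 4 reads in MIC 2 and 6 reads in non-MIC 2, so its size is uncertain. The value of Oas2 rests on 2 reads and 1 read in the second pair. Among the members with more reads, Bst2 differed by 2.28 (adjusted p = 1.04e-05 in limma) and Ifi27 by 1.58. Members that did not pass were Ifit2, Ifit3, Oasl1, Trim25, Mx1 and Mx2, with Trim25 at 0.36 and Ifit2 at 0.22. Members with an ISRE core in the promoter window differed by a median of 1.88 (n = 11) and those without one by a median of 1.71 (n = 16), with ranges of 1.18 to 5.44 and 0.22 to 3.89 that overlapped widely.

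**Figure D3:**
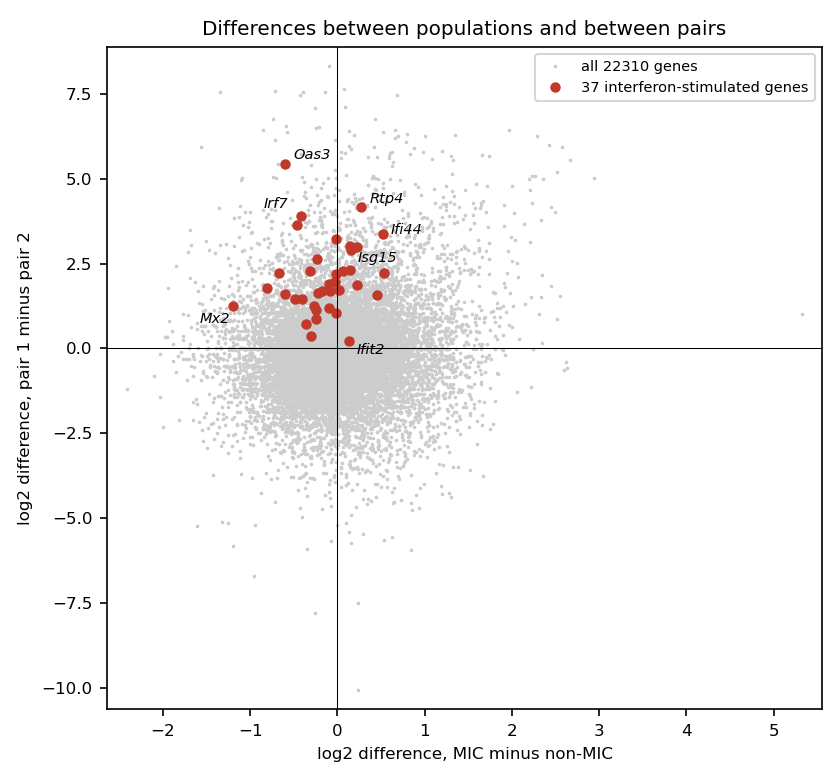
Log2 difference between MICs and non-MICs (x axis) against the log2 difference between the first and the second pair (y axis), both from limma, for all 22310 genes in grey and the 37 interferon-stimulated genes in red. All red points lie above 0 on the y axis, from 0.22 for Ifit2 to 5.44 for Oas3, and on both sides of 0 on the x axis, from -1.20 to 0.53.

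A few members followed another order. Irf1, Ifit2, Mx2 and Rsad2, 4 of 37 members (10.8%), were highest in the third pair in both populations, against 21.7% of all genes. Irf1 was the clearest of them, with 5241 and 7531 in the third pair against 2153 and 2018 in the first, and was the only member lower in the first pair than in the third by the test (6.36% of all genes), while 15 members were higher (7.99% of all genes). Its difference between the third and the second pair was 3.23 on the log2 scale (adjusted p = 3.61e-07 in limma). Irf7, by contrast, stood high in the first pair only and its difference between the third and the second did not pass (adjusted p = 0.359 in limma), and Bst2 was lowest in the third pair in both populations.

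Markers of other cells moved with the pairs in different directions. The summed immune markers were 355, 2599 and 607 in MICs 1 to 3 and 328, 1486 and 741 in non-MICs 1 to 3, highest in the second pair, where the members were lowest. Most of that sum was Lyz2, at 1635 and 834 in the second pair, and Ptprc, which encodes the CD45 of the depletion, was at 0 in both libraries of the first pair and at 10.0 or lower elsewhere. Of the detected immune markers, Csf1r, S100a8, S100a9 and Cd79a were not highest in the second pair in both populations, while the others were. The summed luminal markers moved with the members, at 648801, 227821 and 491482 in MICs and at 764960, 293650 and 462280 in non-MICs, with 5 of 7 genes lowest in the second pair in both populations (17.1% of all genes). Most of that sum was Krt8 and Krt18, at 266033 and 259924 in MIC 1. In both populations 5 of 7 were highest in the first pair (12.8% of all genes), but Epcam was highest in the third pair. Cldn3 was lowest in the third pair in both populations. The summed basal markers were also highest in the first pair, at 273676, 7494 and 33354 in MICs and at 70771, 6584 and 22056 in non-MICs. Most of the sum in the first pair was Acta2, at 230574 in MIC 1 and 48582 in non-MIC 1. Acta2, Krt5 and Trp63 were higher in MICs in every pair (12.5% of all genes), and Krt14 was not. Acta2 and Krt5 passed between the populations (adjusted p = 3.12e-05 and 0.0121 in limma with the block), and Trp63 and Krt14 did not. The fibroblast markers were at 2167, 673 and 2009 in MICs and at 1157, 742 and 588 in non-MICs. The part of these cells in the difference between pairs was not tested.

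Few genes of the upstream part of the pathway followed the members. Of 17 listed interferon genes, Ifnz alone was in the table, with 5 or fewer reads in every library, and the other 16 are not analysed here. Of 9 genes for receptors and kinases, 0 passed between MICs and non-MICs in either limma fit or in edgeR with the block, and 2, Tyk2 and Ifnlr1, had an unadjusted p under 0.05 in limma and in edgeR with the block, where 11.2% and 11.7% of all genes did. Ifnar1, a chain of the type I receptor, was at 2001, 2681 and 2602 in MICs and at 2310, 2555 and 2536 in non-MICs, and Ifnar2, the other chain, at 579, 557 and 578 in MICs and at 701, 572 and 672 in non-MICs. Both were nearly level across pairs. The median SD between libraries over the 9 genes, on the log2 scale, was 0.33 in MICs and 0.24 in non-MICs. Between the first and the second pair 1 of the 9 genes, Ifngr2, a chain of the interferon gamma receptor, passed in limma, higher by 0.65 in the first, and 2 passed in edgeR. Of all genes, 7.57% were higher in the first pair than in the second in limma and 9.64% in edgeR. Tyk2, the kinase of IFNAR1, was lower in MICs in each pair, at 934, 1623 and 1210 against 1888, 2184 and 1311, as was Ifnlr1, the specific chain of the type III receptor, at 438, 445 and 341 against 808, 480 and 483. Their log2 fold changes were -0.52 and -0.50 (adjusted p = 0.418 and 0.423 in limma with the block). The remaining genes of the list, Ifngr1, Ifngr2, Il10rb, Jak1 and Jak2, had log2 fold changes between -0.15 and 0.30.

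Other targets of interferon followed the members in part. Of 50 further interferon-stimulated genes in the table, 30 were higher in the first pair than in the second (7.57% of all genes) and 1, Pml, was lower (log2 difference -1.04, adjusted p = 0.00581 in limma, 7.23% of all genes). In both populations 31 were lowest in the second pair (17.1% of all genes). Between MICs and non-MICs 0 of the 50 passed in either limma fit or in edgeR with the block, where 6 and 8 had an unadjusted p under 0.05 with the block in limma and edgeR (11.2% and 11.7% of all genes), Mov10, a helicase that restrains retroelements, coming nearest at 808, 606 and 1014 in MICs and at 1471, 1024 and 1279 in non-MICs (log2 fold change -0.65, adjusted p = 0.0603 in edgeR with the block). The largest changes of this list, Ifi203 at -1.09 and Ifi205 at -0.80, came from genes at or near 0 in some libraries. Of 13 genes of antigen presentation, 10 were higher in the first pair than in the second (7.57% of all genes) and 1, Nlrc5, was lower (log2 difference -1.60, adjusted p = 0.00279 in limma, 7.23% of all genes). H2-K1, a class I heavy chain, was at 18239, 6319 and 17401 in MICs and at 19266, 7530 and 18753 in non-MICs, lowest in the second pair. Exceptions were Tap1, a peptide transporter, and Nlrc5, the transactivator of class I genes, both highest in the second pair, with Nlrc5 at 142, 564 and 129 in MICs and at 206, 483 and 112 in non-MICs. B2m and Psme2 had the largest log2 fold changes of this list between populations, 0.35 and 0.34, and did not pass (adjusted p = 0.472 and 0.481 in limma with the block). Of 8 restraints of the pathway, 0 were higher in the first pair than in the second in limma (7.57% of all genes) and 1 in edgeR (9.64% of all genes). Socs3, a feedback inhibitor of cytokine receptors, was lower (log2 difference -0.74, adjusted p = 0.0337 in limma, 7.23% of all genes). Socs1 and Adar had log2 fold changes of -0.46 and -0.37 between populations without passing. Of 16 genes of nucleic acid sensing, 2 were higher in the first pair, Ikbke and Irf5 (7.57% of all genes), and 1, Tmem173, the gene of the adaptor STING, was lower (log2 difference -0.88, adjusted p = 0.0135 in limma, 7.23% of all genes). The largest changes between populations were those of Aim2 and Tlr7, at 21.1 or fewer normalised read counts.

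**Figure D4:**
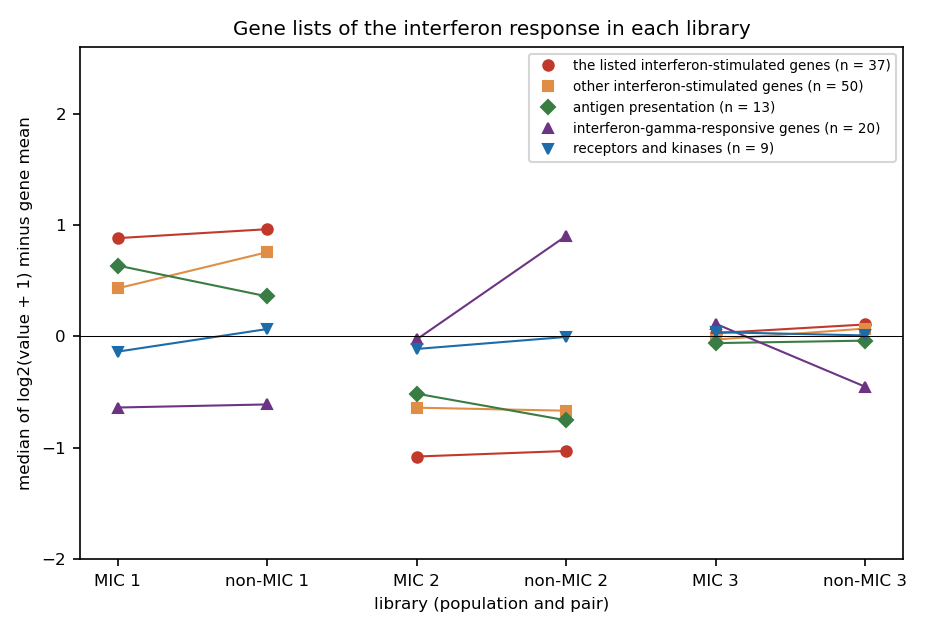
Median over each gene list (y axis) of log2(value + 1) minus the mean of the gene, in each library (x axis), with lines between partners of a pair. The listed interferon-stimulated genes are at 0.88 and 0.96 in the first pair and at -1.08 and -1.03 in the second, while the interferon-gamma-responsive genes are at -0.03 in MIC 2 and 0.90 in non-MIC 2.

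The genes that answer mainly to interferon gamma had a pattern of their own, and the guanylate-binding proteins among the members shared a part of it. These large GTPases coat the membranes of vacuoles and pathogens. Gbp2 was at 1819, 389 and 795 in MICs and at 992, 905 and 777 in non-MICs. Gbp3 was at 298, 63.4 and 216 in MICs and at 303, 187 and 171 in non-MICs. Gbp7 was at 274, 31.1 and 248 in MICs and at 222, 80.3 and 232 in non-MICs. All 3 had their lowest value of the 6 libraries in MIC 2, while non-MIC 2 was lowest of its population for Gbp7 alone. In the second pair all 3 were lower in the MIC library, by log2 differences of -1.22, -1.55 and -1.34, whereas the partners of the first pair differed by 0.87, -0.02 and 0.30 and those of the third by 0.03, 0.33 and 0.10. These genes, and Gbp2b, Iigp1 and Cxcl9 below, were singled out after their values had been seen, and a difference in 1 pair has no replicate check.

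Over the 20 interferon-gamma-responsive genes the median difference between MIC and non-MIC was 0.07 in the first pair, -1.43 in the second and 0.91 in the third. Over all genes the medians were -0.02, 0.04 and -0.05. Non-MIC 2 was the highest of the 6 libraries for 14 of the 20, and the share over all genes was not counted. Gbp4 was at 0, 32.3 and 100 in MICs and at 7.4, 303 and 19.6 in non-MICs, and Gbp6 at 25.4 in non-MIC 2 against 4.4 or lower elsewhere. Iigp1, a GTPase of the vacuolar membrane, was at 419 in non-MIC 2 against 41.2 in its partner, and Cxcl9, a chemokine for T cells, at 321 against 51.2. Gbp2b was at 0 in both libraries of the first pair, at 150 in MIC 2 and 324 in non-MIC 2, and at 18.9 and 14.7 in the third pair. Of the 20 genes, 0 passed between MICs and non-MICs in either limma fit or in edgeR with the block. Gbp6 alone had an unadjusted p under 0.05, in edgeR with the block, where 11.7% of all genes did. Between the first and the second pair the list moved both ways. Igtp and Irgm2 were higher in the first (2 of 20, against 7.57% of all genes), and Gbp2b, Gbp4, Cxcl9 and Gbp10 were lower (4 of 20, against 7.23% of all genes). The adjusted p values of the 4 were 2.43e-06, 0.00394, 0.036 and 0.0395 in limma. The log2 difference was -5.12 for Gbp4 and -3.98 for Cxcl9, and no fold is given for Gbp2b and Gbp10, which were at 0 in both libraries of the first pair. The second pair also held the highest immune marker sums, at 2599 in MIC 2 and 1486 in non-MIC 2. The part of immune cells in these differences was not tested.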

How the data were processed

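RNA of 3 MIC and 3 non-MIC libraries was measured by stranded mRNA sequencing. The submitters' processing notes name STAR and HTSeq and the build GRCm38 (mm10), the study's methods name Bowtie2 and samtools instead, and versions are not given in the sources used here. The deposited signal is the number of reads per gene, scaled by the authors to a total of between 34999999 and 35000001 in each library and filtered for expressed genes. Dividing by the value of 1 read gave whole reads, within 0.01, for between 99.97% and 100.00% of values. These depths set the counting error only, since reads were not collapsed by molecular identifiers. Symbols, types and positions were read from GENCODE vM21 (GRCm38), where 22161 of 22310 identifiers had an entry, and promoters from RefSeq on GRCm38.p6.

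The main test fitted log2(value + 1), which understates changes of low genes, in limma 3.58.1 (R 4.3.3) with a mean-variance trend and no block, and p-values of all 22310 genes were adjusted by the Benjamini-Hochberg method. Where a sentence gives no other tool, adjusted p-values come from limma. The recovered reads were also tested in edgeR 4.0.16 (quasi-likelihood) and in DESeq2 1.42.0, and Python 3.11.15 with pandas 2.3.3 was used for counts. The replicate numbers, shared by both populations in the labels, were taken as pairs from the data: deviations from the population mean correlated at 0.573, 0.668 and 0.746 between libraries sharing a number and at -0.536 to -0.194 between other libraries. Since the deviations of a population cancel out for each gene, the negative values largely follow from the positive ones and are no separate evidence.

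The members and gene lists were chosen with earlier results of these data known, so no test of a list was made and no p-value was adjusted over the members alone. Values in every library are given by rule for members on the same side in all 3 pairs, with the 6 largest changes or with the 6 highest levels per kilobase. From the other lists the interferon receptors and kinases and the 2 largest changes of each list are named by rule, some with a log2 fold change alone, and further genes were chosen after their values were seen. Reads of near-identical copies could not be assigned with certainty. As alternatives the pseudocount was set to 0.1 or 10, and the tests were repeated with genes above the median only, TMM rescaling, quantile normalization, no trend, the replicate block, edgeR, DESeq2 and leaving out each library or pair. The procedures were tested on simulated data. A few listed genes are not reported here.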

Additional observations from a re-analysis of the deposited data

How the results depend on the processing

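In each of the 23 settings tried, the replicate block, edgeR, DESeq2 and every left-out library or pair included, 0 members passed between MICs and non-MICs, and the smallest adjusted p of a member was 0.185 (edgeR, replicate block, Mx2), with 32 members tested among genes above the median and 35 after edgeR's filter. Over all genes the count of calls moved from 0 in limma without a block to 27 higher and 2 lower with the replicate block, 30 and 2 with TMM rescaling as well, 232 and 83 in edgeR with the block, 97 and 14 after edgeR's own filter, 110 and 23 in DESeq2 with the block, and 1 higher in DESeq2 without it. Leaving out 1 pair with the block gave 9 higher and 2 lower without the first pair, 48 and 11 without the second, and 0 and 0 without the third. Without the block, leaving out 1 library moved the median log2 fold change of the members between -0.60 and 0.37 and the number above 0 between 1 and 28, since the pairs were then no longer balanced.

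The count of members that differed between pairs lay between 28 and 35 under the other settings with all libraries and between 0 and 29 when 1 library was left out, and that of members higher in the first pair than in the second between 28 and 33 and between 0 and 28. It was 0 without MIC 3 and without non-MIC 3, and the cause was not tested.

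Leaving out 1 library turned the direction of single members, whose log2 fold changes then ranged as follows: Stat2 -0.70 to 0.19, Irf9 -0.54 to 0.41, Irf1 -1.03 to 0.66, Irf7 -1.70 to 0.75, Ddx58 -0.77 to 0.35, Ifih1 -0.54 to 0.55, Dhx58 -0.62 to 0.09, Zbp1 -1.33 to 0.22, Oas1a -0.38 to 0.73, Oas2 -1.67 to 0.81, Oas3 -1.94 to 0.93, Oasl2 -0.79 to 0.93, Ifit1 -0.68 to 0.69, Ifit2 -0.11 to 0.30, Ifit3 -0.92 to 0.30, Samd9l -0.15 to 1.06, Isg15 -0.79 to 0.93, Usp18 -0.70 to 1.25, Parp9 -0.59 to 0.80, Parp14 -1.08 to 0.64, Dtx3l -0.77 to 0.49, Gbp2 -0.67 to 0.44, Gbp3 -0.86 to 0.25, Gbp7 -0.85 to 0.69, Bst2 -0.80 to 0.79, Cmpk2 -0.53 to 0.51, Rtp4 -0.89 to 1.30, Ifi35 -0.32 to 0.30, Ifi44 -0.47 to 1.41, Xaf1 -0.82 to 0.97. Leaving out 1 pair with the block did so for Stat2 -0.51 to 0.02, Irf9 -0.20 to 0.01, Ifih1 -0.14 to 0.10, Oas2 -1.01 to 0.30, Oasl2 -0.11 to 0.15, Ifit1 -0.16 to 0.06, Ifit2 -0.06 to 0.38, Ifit3 -0.82 to 0.17, Dtx3l -0.17 to 0.00, Gbp2 -0.59 to 0.45, Gbp3 -0.79 to 0.15, Gbp7 -0.62 to 0.20, Bst2 -0.07 to 0.19, Cmpk2 -0.24 to 0.18, Ifi35 -0.12 to 0.07, Xaf1 -0.24 to 0.43. With all libraries, the sign turned for Ifih1 (0.02) in edgeR with the block and filter, Oasl2 (0.04 there and 0.02 in DESeq2 with the block) and Ifit1 (0.02 and 0.00), for Gbp2 (0.21 in edgeR and 0.23 in DESeq2), Gbp7 (0.10 and 0.12) and Xaf1 (-0.15 and -0.12) without the block, for Cmpk2 (-0.06 after quantile normalization, -0.08 in edgeR, -0.00 in edgeR with the block, -0.04 in DESeq2) and for Ifi35 (0.03, 0.05, 0.03, 0.08 and 0.01 in the same settings, the filter and DESeq2 with the block). Depth limits Oas2 and Mx1, which had 3 or fewer reads in a library, and Oas3, with 4 reads in MIC 2 and 6 in non-MIC 2.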
